A study of Mus musculus with 97 samples.

Results

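The aryl hydrocarbon receptor gene Ahr and 6 genes tied to it were followed through 97 RNA-sequencing libraries of mouse hearts and jejuna. The members were taken by gene symbol from the deposited gene table: Ahr, its partner Arnt, the feedback genes Ahrr and Tiparp, and the cytochrome P450 genes Cyp1a1, Cyp1a2 and Cyp1b1, which is 7 of 51368 genes. All mice were C57BL/6, 11 weeks old at the end and on their diet for 3 weeks. Naproxen, which inhibits both cyclooxygenases, was mixed into the diet at 1323 ppm (females) or 1610 ppm (males), and celecoxib, an inhibitor selective for cyclooxygenase-2, at 550 ppm (females). Tryptophan was injected into the peritoneum daily at 50 mg/kg in the last week, and in experiments 2 to 4 every mouse without tryptophan was injected with PBS instead, controls included. Experiment 1 (hearts, no injections) held 5 naproxen females and 5 control females, and 5 naproxen males and 5 control males. Experiment 2 (hearts of females) held 8 mice on naproxen plus tryptophan, 7 on naproxen and 8 controls. Experiment 3 (hearts of females) held 8 tryptophan mice and 8 controls, and experiment 4 (jejuna of females) held 8 celecoxib, 7 naproxen, 8 tryptophan, 7 naproxen plus tryptophan and 8 control mice. Each experiment was a cohort of its own, so groups were compared within experiments only.

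The aryl hydrocarbon receptor is a ligand-activated transcription factor that rests in the cytosol with chaperones and binds planar aromatic pollutants, dietary indoles and breakdown products of tryptophan such as kynurenine and bacterial indoles. With a ligand bound it moves to the nucleus, pairs with the ARNT protein and switches on genes whose DNA carries the core letters GCGTG. Among them are the detoxifying CYP1 enzymes, which clear the ligands, and the AHRR and TIPARP proteins, which damp the receptor. In the intestine the receptor is known for its part in epithelial defence and in the upkeep of lymphoid cells.

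To show where the core letters lie, promoter windows of 250 bases before to 50 bases after the gene start were read from RefSeq (build GRCm38.p6), which gave windows for 6 of the 7 members. GCGTG was searched on both strands, and a match on the strand opposite to the gene reads CACGC. It occurred in 32.4% of all 32851 windows of this length, so a match in a member's window is a description only. The windows of the 4 feedback and CYP1 genes with a match are printed 5′ to 3′ on the gene's strand, with the matches in capitals. They lie at chr9:57697363-57697662 (Cyp1a1, + strand), chr13:74292282-74292581 (Ahrr, − strand), chr17:79715012-79715311 (Cyp1b1, − strand) and chr3:65528197-65528496 (Tiparp, + strand).
Cyp1a1: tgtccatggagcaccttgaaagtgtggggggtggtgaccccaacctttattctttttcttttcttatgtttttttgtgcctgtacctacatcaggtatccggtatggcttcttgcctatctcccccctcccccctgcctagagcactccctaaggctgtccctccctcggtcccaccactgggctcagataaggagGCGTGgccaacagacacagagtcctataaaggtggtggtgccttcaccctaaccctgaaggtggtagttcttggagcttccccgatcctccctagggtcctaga
Ahrr: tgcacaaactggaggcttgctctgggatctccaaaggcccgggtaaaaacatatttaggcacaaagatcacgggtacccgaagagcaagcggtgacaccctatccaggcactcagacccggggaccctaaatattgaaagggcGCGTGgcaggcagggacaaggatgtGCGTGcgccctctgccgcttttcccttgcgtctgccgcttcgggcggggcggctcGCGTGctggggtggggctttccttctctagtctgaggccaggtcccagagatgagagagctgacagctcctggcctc
Cyp1b1: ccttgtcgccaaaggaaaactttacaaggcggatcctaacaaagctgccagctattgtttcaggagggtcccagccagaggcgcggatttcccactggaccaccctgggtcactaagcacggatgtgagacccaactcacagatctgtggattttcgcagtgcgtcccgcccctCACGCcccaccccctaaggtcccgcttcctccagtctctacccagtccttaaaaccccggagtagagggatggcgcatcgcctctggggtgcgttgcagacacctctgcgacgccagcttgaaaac
Tiparp: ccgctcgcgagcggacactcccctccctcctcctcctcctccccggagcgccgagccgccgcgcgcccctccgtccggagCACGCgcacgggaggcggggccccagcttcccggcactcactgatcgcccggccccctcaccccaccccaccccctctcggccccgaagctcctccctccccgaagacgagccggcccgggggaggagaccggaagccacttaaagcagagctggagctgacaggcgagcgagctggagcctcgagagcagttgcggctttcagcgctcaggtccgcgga
The Cyp1a1 window held 1 match at position -54 from the RefSeq gene start, and the Cyp1b1 and Tiparp windows held 1 each at positions -76 and -170 on the opposite strand. That Cyp1a1 window lies inside the span of the gene in the GENCODE annotation (chr9:57687928-57703824), away from its first base. The Ahrr window held 3, at positions -107, -82 and -27. The longer run TNGCGTG occurred in 5.07% of all windows and, among the members, in the Ahrr window alone, where it overlaps a GCGTG match. The Arnt window held 1 match of GCGTG and the Cyp1a2 window none.

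Depth and tissue identity were examined first. Summed in units of 1e6 counts, heart libraries held 26.3 to 76.4 and jejunum libraries 10.1 to 28.5. The cardiomyocyte markers summed to 17410 to 53390 CPM (counts per 1e6 counts) in hearts and 11.5 to 71.2 CPM in jejuna, and the enterocyte markers to 11200 to 48000 CPM in jejuna and 0.155 to 2.41 CPM in hearts. Hearts were sequenced from poly-A RNA and jejuna from ribosome-depleted RNA, so tissue and library kind cannot be told apart in any level set side by side.

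By the mean level per kilobase of exon over all libraries of a tissue, Arnt and Tiparp were the most abundant members in both tissues, and Cyp1a2 was close to absent from both. In the 59 hearts the levels averaged 6.04 ± 0.505 CPM per kb for Arnt and 3.73 ± 0.827 for Tiparp (SD over all libraries), and some libraries overlapped between them. They averaged 1.54 ± 0.599 for Cyp1b1 and 1.12 ± 0.26 for Ahr, whose library ranges overlapped, and 0.567 ± 0.446 for Cyp1a1 and 0.539 ± 0.12 for Ahrr, which could not be ordered. In the 38 jejuna the order was Tiparp at 11.4 ± 1.77 CPM per kb, Arnt at 5.58 ± 0.355, Ahr at 4.32 ± 0.89, Cyp1a1 at 4.19 ± 4.99, Cyp1b1 at 2.86 ± 1.17 and Ahrr at 1.57 ± 0.93. Each neighbouring pair in this order overlapped in its library range, Tiparp and Arnt by the least (lowest Tiparp 6.32, highest Arnt 6.42 CPM per kb). The pooled order did not hold in each group: the mean of Cyp1a1 ranked above that of Arnt in tryptophan jejuna (9.03 against 5.68 CPM per kb) and below that of Ahrr in celecoxib jejuna (1.145 against 1.31). Ahr ran from 3.07 to 7.13 CPM per kb in jejuna and from 0.71 to 1.65 in hearts, with no overlap. Tiparp did not overlap between the tissues either (lowest jejunum 6.32, highest heart 6.08 CPM per kb). The share of all genes that separate hearts from jejuna in this way was not counted, and library kind differs between them. Cyp1a1 had the widest spread of the members in jejuna, from 0.323 to 19.4 CPM per kb.

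Cyp1a2 encodes the CYP1 enzyme best known from the liver, and it was listed at 0 in 50 of 59 hearts and 36 of 38 jejuna. Its counts summed to 33 over all hearts and to 8 over all jejuna, and a count of 0 allows up to 3 counts, or 0.0393 to 0.114 CPM in a heart and 0.105 to 0.297 CPM in a jejunum. The filter on low counts removed Cyp1a2 in every experiment, so 6 of the 7 members were tested throughout. The highest level in a heart was 0.363 CPM (17 counts) in tryptophan replicate 1 of experiment 3, and the highest in a jejunum was 0.618 CPM (7 counts) in naproxen plus tryptophan replicate 7. Of the 5 hepatocyte markers, that jejunum was highest in all 5, with 99.9 CPM of Alb, the albumin gene, against at most 0.881 CPM in the other jejuna, and a summed level of 128 CPM. That heart was highest in Alb (53.3 CPM, against at most 17.6 CPM in the other hearts), Serpina1a (2.5 against at most 0.81 CPM) and Fgb (1.9 against at most 1.02 CPM). It was not the highest in Cyp2e1 (18.4 against up to 117 CPM) or Ahsg (14.9 against up to 16.9 CPM), and its summed level of 91.0 CPM lay below the 131.1 CPM of the highest naproxen plus tryptophan heart. The part of hepatocyte RNA in these Cyp1a2 levels was not tested. No member gained or lost a call when that library was left out of its experiment.

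**Figure D1:**
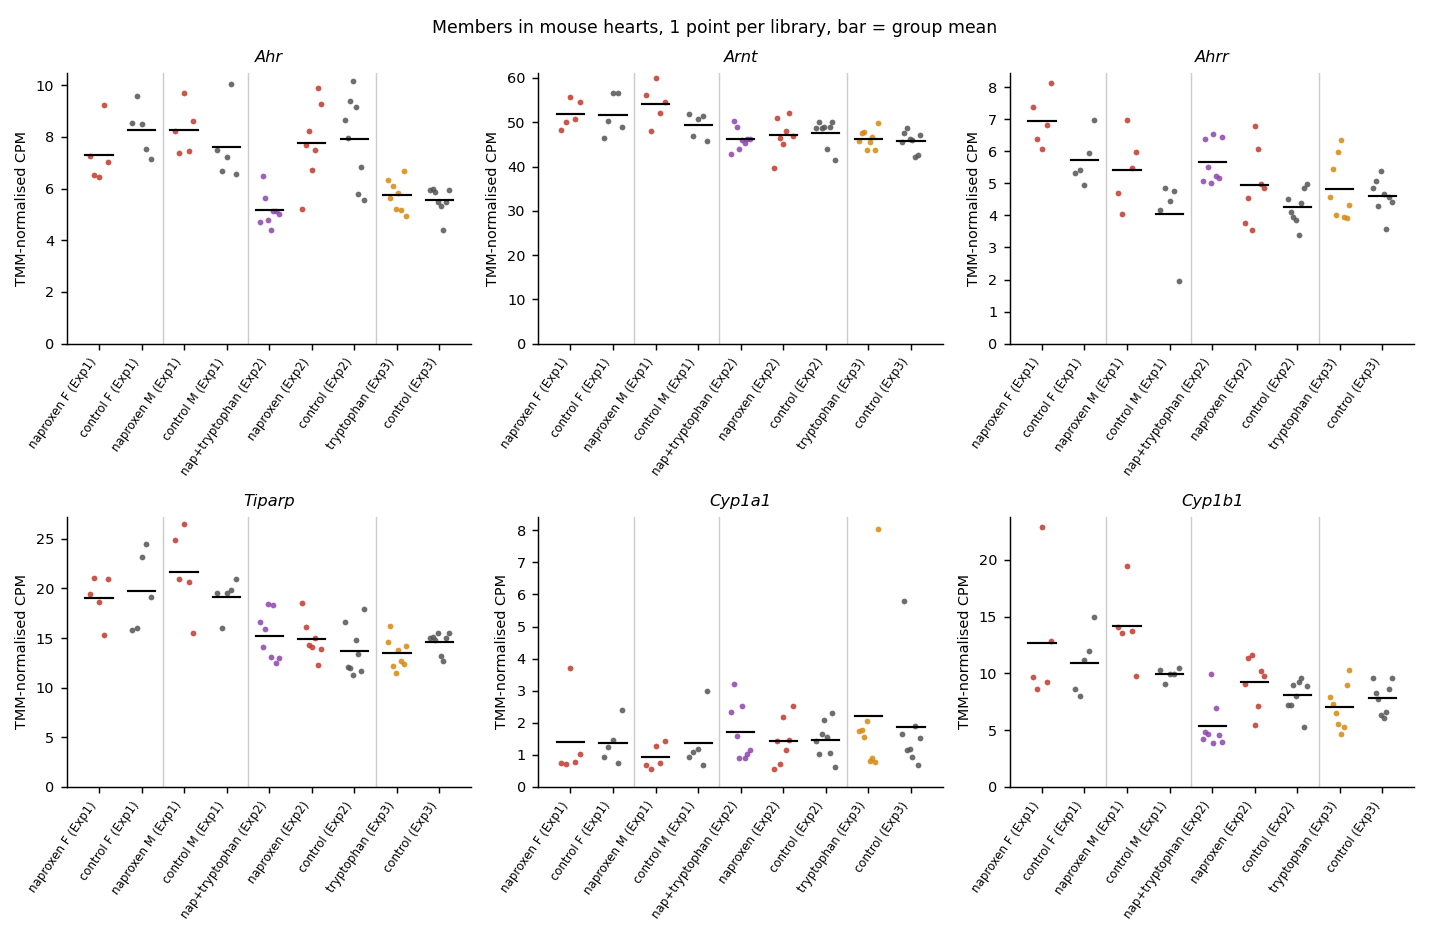
Normalised CPM of the 6 measurable members in each heart library, with 1 point per library, a bar at the group mean and thin lines between the 3 experiments (experiment 1 by sex). Ahr in naproxen plus tryptophan hearts sits between 4.41 and 6.48 CPM, while Cyp1a1 runs from 0.552 to 8.05 CPM over all hearts, with single high libraries.

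In the hearts, 1 member was called in 1 comparison: Ahr fell in naproxen plus tryptophan hearts relative to controls. Calls were made with edgeR's quasi-likelihood test where the Benjamini-Hochberg p, taken across every gene in the fit, was at most 0.05. In naproxen plus tryptophan against control, 1 of 6 tested members was called, beside 0.255% of 16085 genes. In naproxen plus tryptophan against naproxen no member was called, beside 0.0933% of all genes, and in naproxen against control none, beside 0% of all genes. These comparisons share hearts: both treated groups were set against the same 8 controls. In experiment 1 no member was called for naproxen in females (0.0132% of 15152 genes called), for naproxen in males (0%), for the difference between the sexes in the naproxen effect (0%) or between control males and control females (0.152%). In experiment 3 no member was called for tryptophan (0% of 15805 genes). At an unadjusted p of 0.05 in edgeR, 3 members passed for naproxen plus tryptophan against control, 2 for naproxen plus tryptophan against naproxen, 2 for naproxen in males, 1 for control males against control females and 0 in each of the other 4 heart comparisons. The shares of all genes that passed the same limit were 17.2%, 9.8%, 7.68% and 8.22% in those 4 comparisons, in that order, and 2.9% to 7.14% in the others. DESeq2 called 2 members in each of the comparisons of naproxen plus tryptophan with control and with naproxen, beside 468 and 85 genes over the whole table. Neither DESeq2 nor limma voom called a member in the other heart comparisons.

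Ahr lies at chr12:35497974-35535038 (GRCm38, GENCODE M21 annotation, − strand) and encodes the receptor itself. A long noncoding gene, Gm48236, lies on the opposite strand, and whether counting used strand is not stated, so reads of the pair may not be told apart. In experiment 2 its lowest, median and highest levels were 4.41, 5.08 and 6.48 CPM in naproxen plus tryptophan hearts, 5.19, 7.70 and 9.87 CPM in naproxen hearts, and 5.54, 8.29 and 10.2 CPM in control hearts. In 6 of 8 naproxen plus tryptophan hearts the level was below that of every control, and the ranges overlapped. The fitted log2 difference between naproxen plus tryptophan and control was -0.62 (SE 0.131, 95% interval -0.889 to -0.349), a fold of 0.651, with an adjusted p of 0.0454 in edgeR. The call is close to the threshold: the adjusted p was 0.0613 with limma voom, and it exceeded 0.05 in 15 of 23 fits that each left out 1 library (controls 1 to 5, naproxen 2, 3 and 5, naproxen plus tryptophan 1 to 7), while the log2 difference stayed between -0.68 and -0.56. Against naproxen alone the log2 difference was -0.59 (SE 0.135, adjusted p 0.107), and naproxen alone differed from control by -0.03 (SE 0.134, adjusted p 1). In bulk RNA, fewer cells of a type and less RNA per cell cannot be told apart, and this holds for every level given.

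The animal numbers in the labels of experiment 2 fall into a first and a later run in each group, and Ahr in the controls differed between the runs. Control hearts had 7.94 to 10.2 CPM in the first run and 5.54 to 6.81 CPM in the later run. Naproxen plus tryptophan hearts had 4.41 to 6.48 CPM in the first run and 5.03 to 5.14 CPM in the later run, below the controls of the same run without overlap in both, by log2 -0.81 and -0.24. Naproxen hearts differed from controls by log2 -0.37 in the first run and 0.66 in the later run. In the later run they lay above the controls without overlap, at 9.27 to 9.87 CPM. That run held 3 naproxen plus tryptophan, 2 naproxen and 3 control hearts. The runs were set apart after the data were seen, and the share of all genes that separate within a run was not counted. Ranges of so few hearts separate readily. In the later run Arnt also separated between naproxen plus tryptophan and naproxen hearts, at log2 -0.11. The lack of overlap within runs is therefore a description only. Whether the runs mark a shared date was not given. With the run as a block the log2 difference of naproxen plus tryptophan from control was -0.61 and its adjusted p 0.0515 in edgeR.

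In the other heart experiments no difference in Ahr was called. Tryptophan hearts of experiment 3 had 4.95, 5.73 and 6.67 CPM (lowest, median, highest) and their controls 4.38, 5.67 and 5.97 CPM, a log2 difference of 0.05 (SE 0.0771, adjusted p 1 in edgeR). Naproxen females of experiment 1 had 6.43, 6.54, 7.02, 7.24 and 9.24 CPM and control females 7.14, 7.55, 8.50, 8.54 and 9.58 CPM (log2 -0.18, SE 0.131). Naproxen males had 7.38, 7.46, 8.21, 8.60 and 9.71 CPM and control males 6.58, 6.69, 7.22, 7.51 and 10.0 CPM (log2 0.12, SE 0.132). The groups overlapped in all of these.

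Arnt, at chr3:95434388-95497240 (+ strand), encodes the nuclear partner that the receptor shares with the hypoxia-inducible factors. The processed pseudogene Gm42672 overlaps it on the same strand, so its counts are uncertain to that extent. It was the steadiest member in hearts: its group means ran from 45.7 to 54.1 CPM, and every treated group overlapped its controls. Naproxen plus tryptophan hearts averaged 46.2 ± 2.43 CPM and their controls 47.6 ± 3.16 CPM (SD, n = 8 each; log2 -0.04, SE 0.0539). The largest heart difference was that of naproxen males from control males, 54.1 ± 4.5 CPM against 49.4 ± 2.81 CPM (SD, n = 5 each; log2 0.13, SE 0.0763, adjusted p 0.717 in edgeR).

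Ahrr, at chr13:74211118-74292331 (− strand), encodes the repressor that competes with the receptor for ARNT. In experiment 2 its lowest, median and highest levels were 5.02, 5.38 and 6.54 CPM in naproxen plus tryptophan hearts, 3.56, 4.84 and 6.81 CPM in naproxen hearts, and 3.38, 4.25 and 4.98 CPM in control hearts. All 8 naproxen plus tryptophan hearts were above all 8 controls, which was so for 0.311% of genes tested in either direction. The log2 difference was 0.42 (SE 0.116) with an adjusted p of 0.103 in edgeR, so it was not called. It passed with DESeq2 (adjusted p 0.0242) and when only the 2 groups compared were fitted (adjusted p 0.0381 in edgeR). Within the first and later runs of animal numbers the log2 differences were 0.52 and 0.24. The lack of overlap within each run follows from that over all hearts and adds nothing to it.

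Ahrr gave a positive fitted difference for naproxen in all 3 heart comparisons with control, none of them called. So did Cyp1b1, at log2 0.21 in females, 0.50 in males and 0.19 in experiment 2. The share of all genes with a positive sign in all 3 was not counted. In Ahrr, naproxen females had 6.06, 6.37, 6.82, 7.39 and 8.13 CPM and control females 4.95, 5.33, 5.41, 5.96 and 6.98 CPM (log2 0.28, SE 0.19, adjusted p 0.775 in edgeR). Naproxen males had 4.03, 4.69, 5.50, 5.97 and 6.97 CPM and control males 1.96, 4.18, 4.45, 4.76 and 4.85 CPM (log2 0.42, SE 0.194, adjusted p 0.628 in edgeR). Without the control male at 1.96 CPM, replicate 10, the males' log2 difference was 0.24. In experiment 2 naproxen alone differed from control by log2 0.21 (SE 0.12, adjusted p 1 in edgeR). The naproxen effect in males minus that in females was log2 0.14 (SE 0.271, 95% interval -0.421 to 0.709). Control males were all below control females in Ahrr, by log2 -0.50 (SE 0.193, adjusted p 0.573 in edgeR), and such separated ranges occurred in 1.47% of genes tested there. Tryptophan hearts of experiment 3 had 3.94, 4.45 and 6.35 CPM and their controls 3.59, 4.62 and 5.38 CPM (log2 0.07, SE 0.105), and the groups overlapped.

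Tiparp, at chr3:65528410-65555518 (+ strand), encodes a mono-ADP-ribosyltransferase that marks the receptor for degradation, and the pseudogene 4931440P22Rik lies on the opposite strand. Its heart levels overlapped between all treated groups and their controls, and it was called in none of the heart comparisons. Naproxen plus tryptophan hearts averaged 15.2 ± 2.42 CPM, naproxen hearts 14.9 ± 1.98 CPM (n = 7) and control hearts 13.7 ± 2.48 CPM (SD, n = 8 unless stated). Tryptophan hearts averaged 13.4 ± 1.55 CPM and their controls 14.6 ± 1.07 CPM (SD, n = 8 each; log2 -0.12, SE 0.0614, adjusted p 1 in edgeR).

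Cyp1a1, at chr9:57687928-57703824 (+ strand), encodes the oxidase most often used as a read-out of the receptor. In hearts it was low, with a median of 0.428 CPM per kb of exon, and it was called in no comparison. In experiment 2 its lowest, median and highest levels were 0.895, 1.37 and 3.21 CPM in naproxen plus tryptophan hearts, 0.569, 1.44 and 2.52 CPM in naproxen hearts, and 0.604, 1.5 and 2.29 CPM in control hearts. Those 3 groups overlapped throughout (naproxen plus tryptophan minus control log2 0.21, SE 0.325). In experiment 3 tryptophan replicate 8 had 8.05 CPM and control replicate 2 had 5.80 CPM, while the other 14 hearts had 0.686 to 2.05 CPM. The log2 difference there was 0.17 (SE 0.539), and -0.44 without tryptophan replicate 8.

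Naproxen female replicate 3 of experiment 1 stood apart in both measurable CYP1 genes. It had 3.71 CPM of Cyp1a1, against 0.719 to 1.02 CPM in the other 4 naproxen females and 0.736 to 2.40 CPM in the control females. In Cyp1b1 it had 22.9 CPM, against 8.60 to 12.8 CPM in the other 4 naproxen females and 8.00 to 14.9 CPM in the control females. The myeloid markers summed to 511 CPM in that heart, against 97.8 to 197.7 CPM in the other naproxen females and 123 to 254 CPM in control females, and their part in the result was not tested. Without it the naproxen difference in females was log2 -0.71 for Cyp1a1 and -0.10 for Cyp1b1, against 0.04 and 0.21 with it.

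Cyp1b1, at chr17:79701537-79715061 (− strand), encodes the CYP1 enzyme found mainly outside the liver, in stromal and vascular cells among others. Its lowest, median and highest levels in experiment 2 were 3.82, 4.61 and 9.93 CPM in naproxen plus tryptophan hearts, 5.44, 9.75 and 11.6 CPM in naproxen hearts, and 5.31, 8.43 and 9.61 CPM in control hearts. Most naproxen plus tryptophan hearts were under 5 CPM, while replicate 6 (6.92 CPM) lay inside the control range and replicate 4 (9.93 CPM) above it. The log2 difference from control was -0.58 (SE 0.187, adjusted p 0.143 in edgeR) and from naproxen alone -0.77 (SE 0.193, adjusted p 0.141 in edgeR), so it was not called. Without naproxen plus tryptophan replicate 4, 1 of 23 libraries left out singly, both passed in edgeR, with log2 -0.77 (adjusted p 0.0389) and -0.97 (adjusted p 0.0115). This omission is named because it changed the calls, and the library was not flagged as standing clear of its group in Cyp1b1. Over all comparisons, 3 of 2586 member values gained a call when a single library was left out, these 2 among them. In males of experiment 1, Cyp1b1 was 9.74, 13.6, 13.7, 14.1 and 19.5 CPM in naproxen hearts and 9.08, 9.90, 9.96, 10.3 and 10.5 CPM in control hearts (log2 0.50, SE 0.234, adjusted p 0.635 in edgeR). Of these naproxen males 4 of 5 were above all control males. Tryptophan alone gave log2 -0.18 (SE 0.0986, adjusted p 1 in edgeR), with overlapping groups.

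Cell type markers were set beside the experiment 2 differences. The endothelial markers summed to a median of 417.7 CPM in naproxen plus tryptophan hearts and 437 CPM in control hearts, and the fibroblast markers to 516 and 582 CPM in the same order of groups. Fitted differences of naproxen plus tryptophan from control were positive for 4 of 4 erythroid markers (median log2 0.389) and 6 of 6 lymphocyte markers (0.268). From naproxen alone they were negative for 6 of 6 myeloid (median -0.499), 6 of 6 lymphocyte (-0.42) and 5 of 5 adipocyte markers (-0.371). The myeloid markers summed to a median of 158.5 CPM in naproxen plus tryptophan, 227.6 CPM in naproxen and 165.2 CPM in control hearts. The lymphocyte markers summed to medians of 4.107, 3.874 and 7.338 CPM in the same order, opposite to their fitted differences in both comparisons. Their highest libraries reached 33, 52.81 and 11.11 CPM in that order. Naproxen plus tryptophan replicate 4, the heart highest in Cyp1b1 in its group, had the highest myeloid sum there, 305.3 CPM against 142.2 to 257.5 CPM in the other 7. None of the genes in the 15 marker lists was called in any comparison. Whether these shifts bear on Ahr, Ahrr or Cyp1b1 was not tested.

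**Figure D2:**
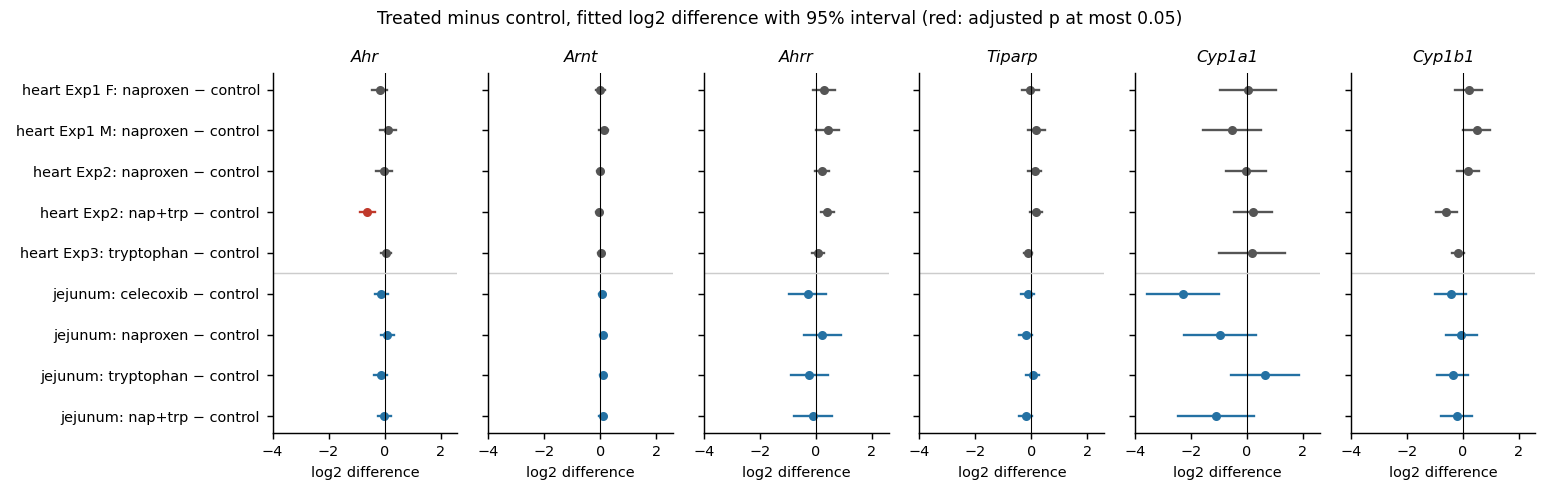
Fitted log2 differences between treated and control groups for the 6 tested members, with 95% intervals; rows run from heart comparisons to jejunum comparisons, and red marks an adjusted p of at most 0.05 in edgeR. Ahr in naproxen plus tryptophan hearts (-0.62) is the 1 red point, and Cyp1a1 in celecoxib jejuna (-2.29) lies farthest from 0.

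In the jejunum no member was called in any of the 7 comparisons made with the main edgeR fit. Beside this, edgeR called 0.0116% of 17185 genes for naproxen against control and 0% for celecoxib, tryptophan, and naproxen plus tryptophan against control, for naproxen plus tryptophan against naproxen, for the naproxen by tryptophan interaction and for naproxen against celecoxib. At an unadjusted p of 0.05, 1 member passed for celecoxib against control (Cyp1a1) and 0 in the other 6, beside 4.37% of all genes for celecoxib and 2.65% to 18.7% in the others. DESeq2 and limma voom called 0 members in all 7, while edgeR without the filter on low counts called members in some of them, as given at the end. The 4 comparisons with control share the same 8 control jejuna, and dissection batch was a block in the fits.

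Cyp1a1 was the member that varied most in the jejunum, and its mean was lowest in celecoxib jejuna. Celecoxib jejuna had 1.60, 2.67 and 7.88 CPM (lowest, median, highest), naproxen jejuna 2.41, 4.42 and 11.8 CPM, tryptophan jejuna 2.67, 16.5 and 54.2 CPM, naproxen plus tryptophan jejuna 0.899, 2.26 and 33.2 CPM, and control jejuna 4.2, 11.4 and 28.3 CPM. In 7 of 8 celecoxib jejuna the level was below that of every control, with replicate 4 (7.88 CPM) inside the control range. The log2 difference of celecoxib from control was -2.29 (SE 0.633, 95% interval -3.58 to -1.01), a fold of 0.204, with an unadjusted p of 0.000957 and an adjusted p of 0.957 in edgeR. With DESeq2 the adjusted p was 0.109. The difference was negative in all 4 dissection batches, at log2 -1.12, -2.80, -1.62 and -2.58, and between -2.45 and -1.85 when single libraries were left out. The enterocyte markers summed to a median of 32750 CPM in celecoxib jejuna and 32360 CPM in control jejuna, and their part in the result was not tested.

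**Figure D3:**
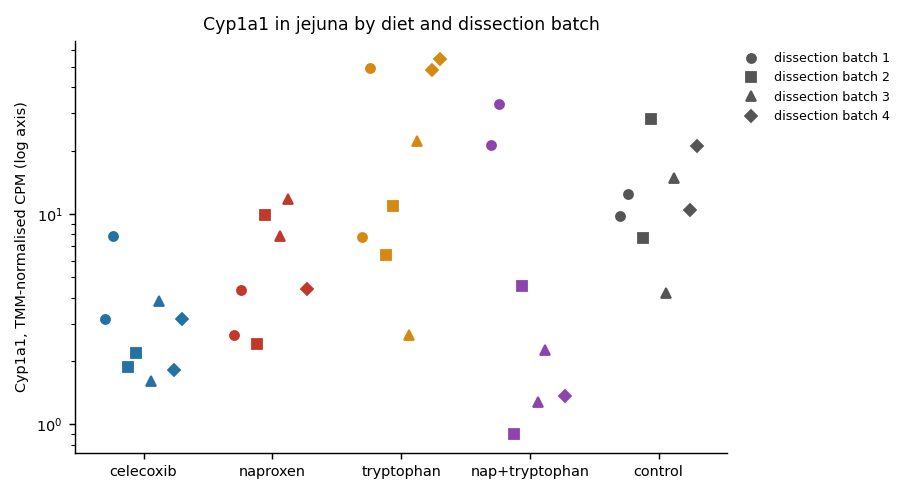
Cyp1a1 in each jejunum library on a log axis of normalised CPM, by diet and injection, with a marker shape for each of the 4 dissection batches. Celecoxib jejuna lie between 1.60 and 7.88 CPM, tryptophan and naproxen plus tryptophan jejuna spread over the widest ranges, and control jejuna lie between 4.2 and 28.3 CPM.

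No other difference in Cyp1a1 passed an unadjusted p of 0.05 in the jejunum. Naproxen jejuna differed from control by log2 -0.98 (SE 0.629, adjusted p 0.429 in edgeR), with a positive difference in 1 of 4 dissection batches. Tryptophan jejuna split within the group: replicates 4, 6 and 7 had 49.3, 48.2 and 54.2 CPM, replicate 3 had 22.1 CPM and the other 4 had 2.67 to 10.9 CPM. Their log2 difference from control was 0.63 (SE 0.599, adjusted p 0.999 in edgeR), positive in 2 of 4 batches. Among naproxen plus tryptophan jejuna, replicates 6 and 7, the 2 of dissection batch 1, had 33.2 and 21.2 CPM and the other 5 had 0.899 to 4.54 CPM, which gave log2 -1.10 from control (SE 0.669, adjusted p 0.846 in edgeR). Within batches that difference was 1.26 in batch 1 and -2.78, -2.15 and -3.35 in the others. Naproxen exceeded celecoxib by log2 1.32 (SE 0.649, 95% interval -0.00464 to 2.64, adjusted p 0.269 in edgeR), at doses that differ. The naproxen by tryptophan interaction was log2 -0.76 (SE 0.901).

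**Figure D4:**
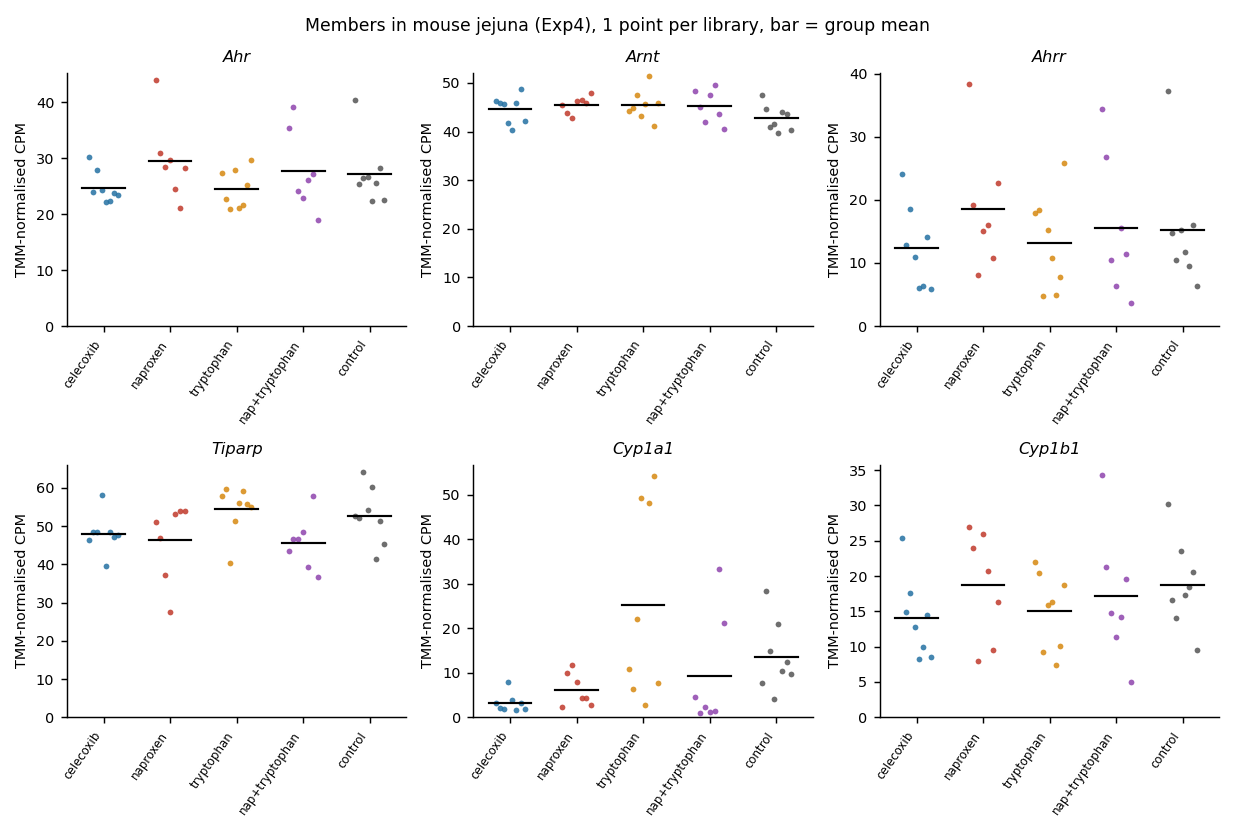
Normalised CPM of the 6 measurable members in each jejunum library by treatment, with 1 point per library and a bar at the group mean. The group means of Arnt run from 42.8 to 45.5 CPM, while Ahrr and Cyp1b1 spread widely within each group.

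Ahr, Arnt and Tiparp had no called difference between jejunum groups, and their log2 differences from control stayed between -0.21 and 0.10. Mean Ahr was 24.7 ± 2.79 CPM in celecoxib, 29.5 ± 7.18 CPM in naproxen, 24.5 ± 3.47 CPM in tryptophan, 27.7 ± 7.16 CPM in naproxen plus tryptophan and 27.2 ± 5.68 CPM in control jejuna (SD, n = 7 or 8). Its log2 differences from control ran from -0.14 to 0.10. Arnt differed from control by log2 0.06 to 0.09, and its means ran from 42.8 to 45.5 CPM. Tiparp averaged 46.3 ± 10.2 CPM in naproxen jejuna and 45.5 ± 6.85 CPM in naproxen plus tryptophan jejuna, against 52.7 ± 7.35 CPM in control jejuna (SD, n = 7, 7 and 8; log2 -0.20 and -0.21, adjusted p 0.375 and 0.823 in edgeR). All groups overlapped for all of these genes.

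Ahrr and Cyp1b1 varied widely within each jejunum group, and together. Ahrr had 5.86, 11.9 and 24.1 CPM (lowest, median, highest) in celecoxib, 8.13, 16 and 38.4 CPM in naproxen, 4.69, 13.0 and 25.9 CPM in tryptophan, 3.62, 11.4 and 34.5 CPM in naproxen plus tryptophan, and 6.27, 13.2 and 37.3 CPM in control jejuna. Cyp1b1 had 8.32, 13.7 and 25.4 CPM in celecoxib, 7.99, 20.8 and 26.9 CPM in naproxen, 7.44, 16.1 and 22 CPM in tryptophan, 4.95, 14.8 and 34.3 CPM in naproxen plus tryptophan, and 9.47, 17.9 and 30.2 CPM in control jejuna. No group separated from the controls. The difference from control with the smallest p among these was Cyp1b1 in celecoxib jejuna, at log2 -0.44 (SE 0.266, adjusted p 0.957 in edgeR).

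Across the 38 jejuna, after the means of group and dissection batch were subtracted, log2 levels of Ahrr and Cyp1b1 went together with a Pearson r of 0.879 (Spearman rho 0.856, and r 0.85 without the 2 libraries farthest from the median in Ahrr). Ahr went with Ahrr (r 0.734, rho 0.70, r 0.671 without 2 libraries) and with Cyp1b1 (r 0.606, rho 0.547, r 0.48 without 2 libraries). Cyp1a1 did not go with them: its r was -0.444 with Ahrr, -0.292 with Cyp1b1 and -0.153 with Ahr. These r values describe libraries that share depth and tissue makeup, and are given with no test. In the 59 hearts the pairs stayed between -0.287 (Ahr and Tiparp) and 0.452 (Cyp1b1 and Tiparp), so the jejunum grouping of Ahr, Ahrr and Cyp1b1 was not seen there (r 0.0421 for Ahr and Ahrr, -0.245 for Ahrr and Cyp1b1).

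The jejuna high in Ahrr were also high in markers of blood vessels and fibroblasts and low in those of enterocytes. In all 5 groups the library with the most Ahrr was the one with the highest sum of endothelial markers, and in 4 of 5 groups for Ahr and for Cyp1b1, against 0 of 5 for Cyp1a1. The 5 jejuna highest in endothelial markers, at 343 to 495 CPM, had 25.9 to 38.4 CPM of Ahrr, 18.7 to 34.3 CPM of Cyp1b1 and 29.7 to 43.9 CPM of Ahr. The 5 lowest, at 68.8 to 89.3 CPM, had 3.62 to 6.09 CPM of Ahrr, 4.95 to 9.20 CPM of Cyp1b1 and 18.9 to 23.4 CPM of Ahr. Cyp1a1 ran from 0.899 to 7.72 CPM in those 5 highest and from 1.80 to 48.2 CPM in those 5 lowest, which overlap. By fibroblast markers, the 5 highest jejuna (1175 to 1472 CPM) had 15.05 to 38.4 CPM of Ahrr, 21.3 to 34.3 CPM of Cyp1b1 and 29.6 to 43.9 CPM of Ahr. The 5 lowest (227.6 to 304.8 CPM) had 4.69 to 6.41 CPM of Ahrr, 7.44 to 10.01 CPM of Cyp1b1 and 20.8 to 23.4 CPM of Ahr. The 5 jejuna highest in enterocyte markers (37930 to 48000 CPM) had 9.74 to 54.2 CPM of Cyp1a1, and the 5 lowest (11200 to 15690 CPM) had 0.899 to 7.83 CPM, with no overlap. The 28 jejuna between them had 1.276 to 49.29 CPM. Their median of 4.376 CPM was below the 4.539 CPM of the 5 lowest, so Cyp1a1 did not rise steadily with these markers. Ahrr ran from 3.62 to 10.5 CPM in those 5 highest and from 15.05 to 38.4 CPM in those 5 lowest. The levels in this paragraph were not adjusted for treatment or dissection batch, and the share of all genes that separate in this way was not counted. Naproxen replicate 1, control replicate 1 and naproxen plus tryptophan replicates 1 and 2 were all of dissection batch 2. They were among the 5 highest in endothelial and in fibroblast markers and the 5 lowest in enterocyte markers. No jejunum of that batch was among the 5 lowest in endothelial markers, so these sets also differ in batch. Which cells the RNA came from was not tested.

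**Figure D5:**
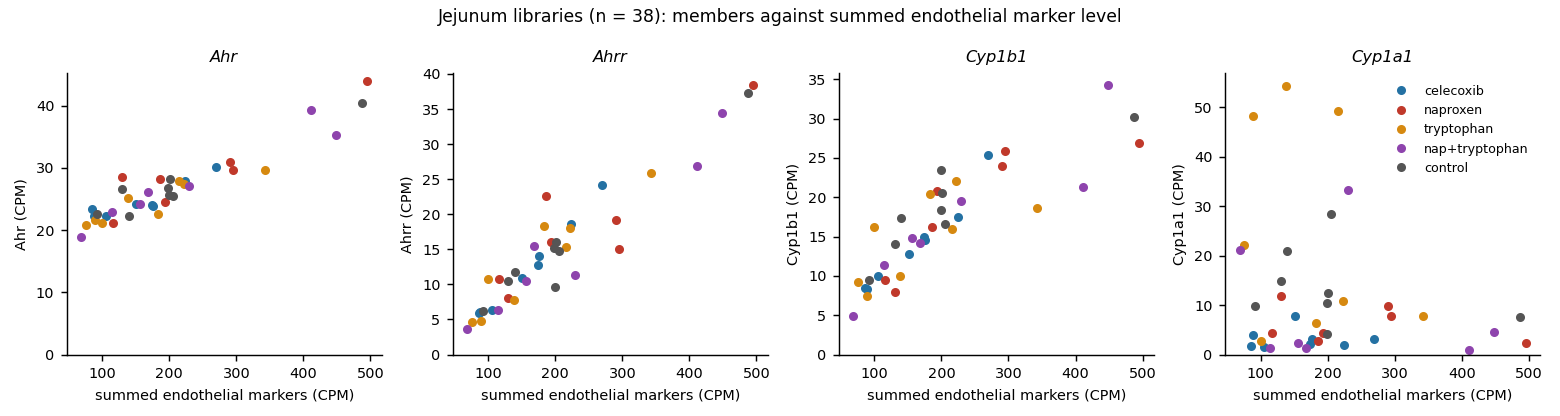
Normalised CPM of Ahr, Ahrr, Cyp1b1 and Cyp1a1 against the summed level of the endothelial markers in the 38 jejuna, coloured by treatment. The first 3 climb with the marker sum, to 38.4 CPM for Ahrr, while Cyp1a1 reaches its highest levels at low or middle marker sums.

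The genes whose library-to-library pattern was most like each member's were found by the same residual r among 15062 genes in the jejunum. Ahrr was closest to Myof (0.961), Itga11 (0.96), a collagen-binding integrin subunit of mesenchymal cells, and Bmp5 (0.96), a bone morphogenetic protein. Cyp1b1 was closest to Lgr5 (0.94), a receptor for R-spondins, Lbh (0.933) and Ptch1 (0.932), the hedgehog receptor. Cyp1a1 was closest to Arsg (0.908), Slc46a1 (0.884), the intestinal folate transporter, and Fth1 (0.873), the heavy chain of ferritin. These 3 had log2 differences between celecoxib and control of -0.47 (SE 0.39), -0.48 (SE 0.594) and -0.14 (SE 0.189), none called, and their part in the Cyp1a1 difference was not tested. Ahr was closest to Man2b1 (0.88), Hfe (0.869) and Pcsk6 (0.864), Arnt to Sh3bp2 (0.741), Msantd2 (0.678) and Ranbp17 (0.671), and Tiparp to Serpinb1a (0.836), Vta1 (0.828) and Arpc5 (0.815).

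In the 59 hearts, among 13475 genes, Ahr was closest to Trib2 (r 0.755), Ssh2 (0.683) and Podxl (0.682), and the 3 nearest genes of Cyp1b1 included Eps8 (0.81) and Gcnt1 (0.79). Cyp1a1 was closest to Nfil3 (0.698), a transcription repressor with a daily rhythm, Car14 (0.653) and Glul (0.641), glutamine synthetase. Arnt was closest to Gatad2b (0.85), Cpd (0.818) and Hnrnpul2 (0.804), Tiparp to Rnf141 (0.83), Tmem167 (0.80) and Golt1b (0.79), and Ahrr only loosely to Mphosph9 (0.537), Zfp202 (0.536) and Skida1 (0.514).

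The rest of the pathway was read from gene lists chosen with earlier results of these data known. The 17 other targets of the receptor, such as Nqo1 and Aldh3a1, had no called gene in any of the 15 comparisons. In naproxen plus tryptophan hearts 14 of them were tested, 4 with a positive and 10 with a negative difference from control, with a median log2 of -0.0366 beside -0.00452 over all genes. In the jejunum 13 were tested, and 3 were positive and 10 negative for celecoxib (median -0.192, beside -0.00341 over all genes), 3 and 10 for naproxen (-0.205, beside 0.022), 8 and 5 for tryptophan (0.0479, beside -0.00266) and 2 and 11 for naproxen plus tryptophan (-0.193, beside 0.0164).

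The 12 genes of the receptor's complex and chaperones, the 11 other bHLH-PAS factors, the 14 enzymes that make or clear tryptophan-derived ligands and the 12 hypoxia targets read through Arnt had no called gene in any comparison. In naproxen plus tryptophan jejuna all 11 tested ligand enzymes had negative differences from control, from -0.69 to -0.01 (median -0.299). There 11 of 12 hypoxia targets had positive ones (median 0.204), beside a median of 0.0164 over all genes, and none was called. The signs of both lists were the most one-sided in this comparison. Against control, ligand enzymes were 4 positive and 7 negative for naproxen, 3 and 8 for tryptophan and 2 and 9 for celecoxib. Hypoxia targets were 8 and 4, 9 and 3, and 4 and 8 in the same order. The share of such sign runs among all genes was not counted.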

How the data were processed

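Whole hearts (poly-A, stranded libraries) and flushed jejuna (ribosome-depleted total RNA, because of low RNA integrity) were sequenced, per the labels. The authors deposited 1 table of estimated counts per gene and library. Salmon 1.9.0, R 4.2.2 and GRCm38 are named in the submitters' processing notes; the step from transcripts to genes is not given in those notes or the labels. Before the fits, these estimates were rounded. Each experiment was fitted on its own in edgeR 4.0.16 (R 4.3.3) with filterByExpr (minimum count 10), TMM factors and the robust quasi-likelihood test, with dissection batch as a block in experiments 3 and 4 and the Benjamini-Hochberg method over all genes tested (threshold 0.05). Levels are CPM on TMM library sizes. Likeness used residual log2 CPM (prior count 2) of genes of at least 1 CPM on average, naming the 3 nearest genes per member. Pathway lists are given by counts, medians and ranges. Some items are not reported here.

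DESeq2 1.42.0, limma 3.58.1 (voom), RLE factors, no filter, fits of only the groups compared, a replicate block and omission of single libraries were the alternatives. A block for runs of animal numbers and omission of libraries with more than 5 Cyp1a2 counts were added after the data were seen. The fits were tested on simulated data. Members and lists were chosen with earlier results of these data known. Same-numbered libraries did not pair: in each of 12 comparisons checked, the correlation of their deviations exceeded 0.1 in some pairs but not all (1 to 4 pairs). No 2 libraries of a group agreed within counting noise (lowest chi-square per degree of freedom 15.6). P-values measure the spread between these libraries, and the limit set by a count of 0 covers counting error only.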

Additional observations from a re-analysis of the deposited data

Results flagged for a closer look

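In the 87 combinations of member and group examined, 15 held a library standing clear of the rest of its group by Dixon's criterion at the 95% level, where chance gives about 1 in 20. For Ahr the highest libraries were naproxen female replicate 4 at 9.238 CPM (next 7.242) and control male replicate 9 at 10.03 CPM (next 7.505) in hearts, and naproxen replicate 1 at 43.94 CPM (next 30.9) and control replicate 1 at 40.35 CPM (next 28.27) in jejuna. Control replicate 6 of experiment 3 was the lowest of its group in Ahr at 4.377 CPM (next 5.337). Ahrr was lowest in control male replicate 10 at 1.964 CPM (next 4.177) and highest in jejunum control replicate 1 at 37.28 CPM (next 15.99), the control jejunum that also led in Ahr and in endothelial markers.

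Cyp1a1 was highest in naproxen female replicate 3 at 3.711 CPM (next 1.017), control male replicate 10 at 2.997 CPM (next 1.17), tryptophan replicate 8 at 8.054 CPM (next 2.047) and control replicate 2 at 5.803 CPM (next 1.895) of experiment 3, and celecoxib jejunum replicate 4 at 7.876 CPM (next 3.868). Control male replicate 10 was thus the lowest of its group in Ahrr and the highest in Cyp1a1; its erythroid markers summed to 2159 CPM, against 625.9 to 956.3 CPM in the other control males, and their part was not tested. Cyp1a2 stood out in tryptophan heart replicate 1 at 0.3628 CPM (next 0.02601) and in naproxen plus tryptophan jejunum replicate 7 at 0.6182 CPM (next 0); both were the highest of their tissue in Alb, the heart not in every hepatocyte marker. Tiparp was lowest in tryptophan jejunum replicate 3 at 40.36 CPM (next 51.34).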

How the results depend on the processing

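Over the alternatives other than omissions, 622 of 636 gene values kept their side of the threshold, 4 lost and 10 gained a call and 0 called values turned sign. Of the 622, 17 uncalled values changed sign, each by a move of no more than its standard error. For naproxen plus tryptophan against control in hearts, where 1 member was called, the number was 2 with DESeq2, 2 with only the groups compared, 0 with limma voom, 0 without the filter on low counts, 0 with the run of animal numbers as a block and 0 to 1 over omissions of single libraries. With the replicate block it was 0, and the block moved Ahr to log2 -0.61 (adjusted p 0.108 in edgeR), although the replicate numbers do not pair the libraries. For naproxen plus tryptophan against naproxen, DESeq2 called 2 members and omissions 0 to 1. Without the filter, jejunum members called were 1 each for celecoxib, naproxen, tryptophan and naproxen plus tryptophan against control and 2 for naproxen against celecoxib, and calls over all genes in those 5 comparisons were 319, 1182, 253, 476 and 1784; the cause was not tested. Omissions turned the sign of 79 of 2586 gene values. Among them were Cyp1a1 for naproxen in females (-0.71 to 0.38), for the difference of the naproxen effect between males and females (-0.93 to 0.17) and for control males against control females (-0.49 to 0.32). Others were Cyp1a1 for naproxen against control in experiment 2 (-0.21 to 0.10) and for tryptophan in hearts (-0.44 to 0.59), and Cyp1b1 for naproxen in females (-0.10 to 0.38). DESeq2 called 468 genes for naproxen plus tryptophan against control in hearts, against 41 with edgeR. Cyp1a2 in both tissues is limited by depth.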
